A study of Rattus norvegicus with 28 samples.

Results

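Nqo1, Aldh3a1, Ugdh, Ugt1a6 and Gsta2 encode phase II enzymes and belong to the battery of drug-metabolizing genes that dioxins induce in liver through the aryl hydrocarbon receptor (AHR). They were found by the gene name of their non-control probes, with the RefSeq accession of each probe checked: 5 genes with 6 probes (2 for Gsta2), of 37806 gene names and 41012 probes. Their RNA was measured in primary hepatocytes of 2 adult female Sprague-Dawley rats (animals A and B) on 28 Agilent 2-colour arrays, 4 for each of 7 groups. All cells were kept on Matrigel for 48 h in medium with insulin, transferrin, selenium and 0.1 uM dexamethasone before treatment. For the following 24 h they received TCDD (a chlorinated dioxin) at 0.01 or 1 nM, TCDF (a chlorinated dibenzofuran) at 0.1 or 10 nM or PeCDF (a dibenzofuran with more chlorine) at 0.02 or 2 nM, all in 0.1% DMSO, or nothing (untreated cells, no DMSO). Each of these RNAs, pooled from 3 dishes, was hybridized against RNA of cells of the same animal given 0.1% DMSO alone, once in each dye orientation. The model is thus that of cultured cells of 2 animals, and the labels do not say if an animal's DMSO RNA was 1 preparation.

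AHR is a ligand-activated transcription factor that pairs with ARNT in the nucleus and binds DNA elements with the core GCGTG. Beside the cytochromes that oxidize foreign compounds, it is known to raise enzymes that detoxify the products: NQO1 reduces quinones, ALDH3A1 oxidizes aromatic and medium-chain aldehydes, UGDH makes UDP-glucuronic acid, UGT1A6 transfers that sugar to planar phenols, and GSTA2, an alpha-class transferase, conjugates glutathione. Nqo1 and Gsta2 also respond to NRF2, the regulator of the oxidant response, and rat liver is known to carry little Aldh3a1 until it is induced.

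The 250 bases before the annotated start are shown for the 4 members with an entry in the RefSeq promoter table (build GRCr8), because the core bound by AHR can be read in them. They lie at chr19:52220268-52220517 (minus strand) for Nqo1, chr14:43202268-43202517 (plus strand) for Ugdh, chr9:96194768-96195017 (plus strand) for Ugt1a6 and chr8:88077093-88077342 (minus strand) for Gsta2. Each is written 5′ to 3′ on the strand of its gene, and capitals mark GCGTG or its complement CACGC.
Nqo1: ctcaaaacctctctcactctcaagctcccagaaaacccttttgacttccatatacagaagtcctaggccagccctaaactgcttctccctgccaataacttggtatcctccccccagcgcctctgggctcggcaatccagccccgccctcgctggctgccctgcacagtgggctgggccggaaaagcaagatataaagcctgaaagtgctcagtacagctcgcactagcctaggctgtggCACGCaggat
Ugdh: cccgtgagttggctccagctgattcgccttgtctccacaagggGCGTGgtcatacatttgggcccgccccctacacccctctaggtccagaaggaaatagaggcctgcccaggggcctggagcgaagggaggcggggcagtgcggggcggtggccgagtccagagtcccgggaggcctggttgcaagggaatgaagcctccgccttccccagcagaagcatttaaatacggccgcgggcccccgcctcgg
Ugt1a6: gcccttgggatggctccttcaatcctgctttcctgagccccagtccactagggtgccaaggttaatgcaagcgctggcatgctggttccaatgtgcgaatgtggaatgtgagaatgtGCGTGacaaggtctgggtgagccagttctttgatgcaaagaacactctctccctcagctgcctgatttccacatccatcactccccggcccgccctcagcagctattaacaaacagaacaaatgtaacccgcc
Gsta2: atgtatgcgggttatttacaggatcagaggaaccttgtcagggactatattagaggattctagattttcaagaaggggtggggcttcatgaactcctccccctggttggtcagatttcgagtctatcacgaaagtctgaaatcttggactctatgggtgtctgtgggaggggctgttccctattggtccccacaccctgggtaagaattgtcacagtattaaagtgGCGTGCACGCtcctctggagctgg
With position -1 as the last base before the start, GCGTG stood at -207 to -203 in Ugdh, at -133 to -129 in Ugt1a6 and at -24 to -20 in Gsta2. On the opposite strand it stood at -10 to -6 in Nqo1 and at -19 to -15 in Gsta2, where both copies adjoin. GCGTG, searched on both strands, was thus found in 4 of 4 member windows, and in 25.9% of the 33469 windows of this length in the table. The motif TGACNNNGC, the core of the antioxidant response element, was found on either strand in 1 of the 4, in Ugdh at -207 to -199, where it overlaps GCGTG, and in 10.1% of all windows. A match is a description of these letters and does not show binding. Sequence outside these 250 bases was not searched, so a window without a match does not show that the gene lacks the element.

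A value below is a log2 ratio of test RNA over DMSO RNA, so that 1 means a doubling, unless it is called a level. Pairs of array values of an animal give first the plus orientation (test RNA in the red channel), then the minus orientation (test RNA in green). The probes of the 5 genes were well above background on all 28 arrays in both channels, and none was saturated or marked as an outlier. The median absolute difference between the 2 dye orientations of an animal was 0.08 over 70 dye-swap pairs (highest 0.34). Between the 2 animals it was 0.22 over all 35 gene and group pairs and 0.39 over the 15 at the upper doses (highest 1.73 in both). Each group has n = 2 animals. An SE below is limma's, with the spread between animals pooled over the groups, and is not that of the 2 animals of 1 group. For Nqo1 it was 0.18 in every group. The SD of its 2 animals ran from 0.04 with TCDF 10 nM to 0.67 with TCDD 1 nM.

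All 5 genes rose with TCDD at 1 nM. Aldh3a1 rose 4.87-fold, Nqo1 2.91-fold, Gsta2 1.87-fold, Ugt1a6 1.74-fold and Ugdh 1.38-fold, and every array of every member was above 0. A gene was called at an adjusted p under 0.05 in limma, with Benjamini-Hochberg adjustment over all gene names tested. In this comparison 4.63% of all gene names were called higher and 5.92% lower. With PeCDF at 2 nM and with TCDF at 10 nM the same 3 genes, Nqo1, Ugt1a6 and Ugdh, were called higher, and Aldh3a1 and Gsta2 were not. The background was 1.72% called higher and 2.67% lower with PeCDF 2 nM, and 1.11% higher and 1.26% lower with TCDF 10 nM. Over the 5 members no call was made at the lower doses or in untreated cells. There the share of all gene names called higher was 0.0947% with TCDD 0.01 nM, 0.00287% with TCDF 0.1 nM, 0% with PeCDF 0.02 nM and 0.023% in untreated cells.

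**Figure D1:**
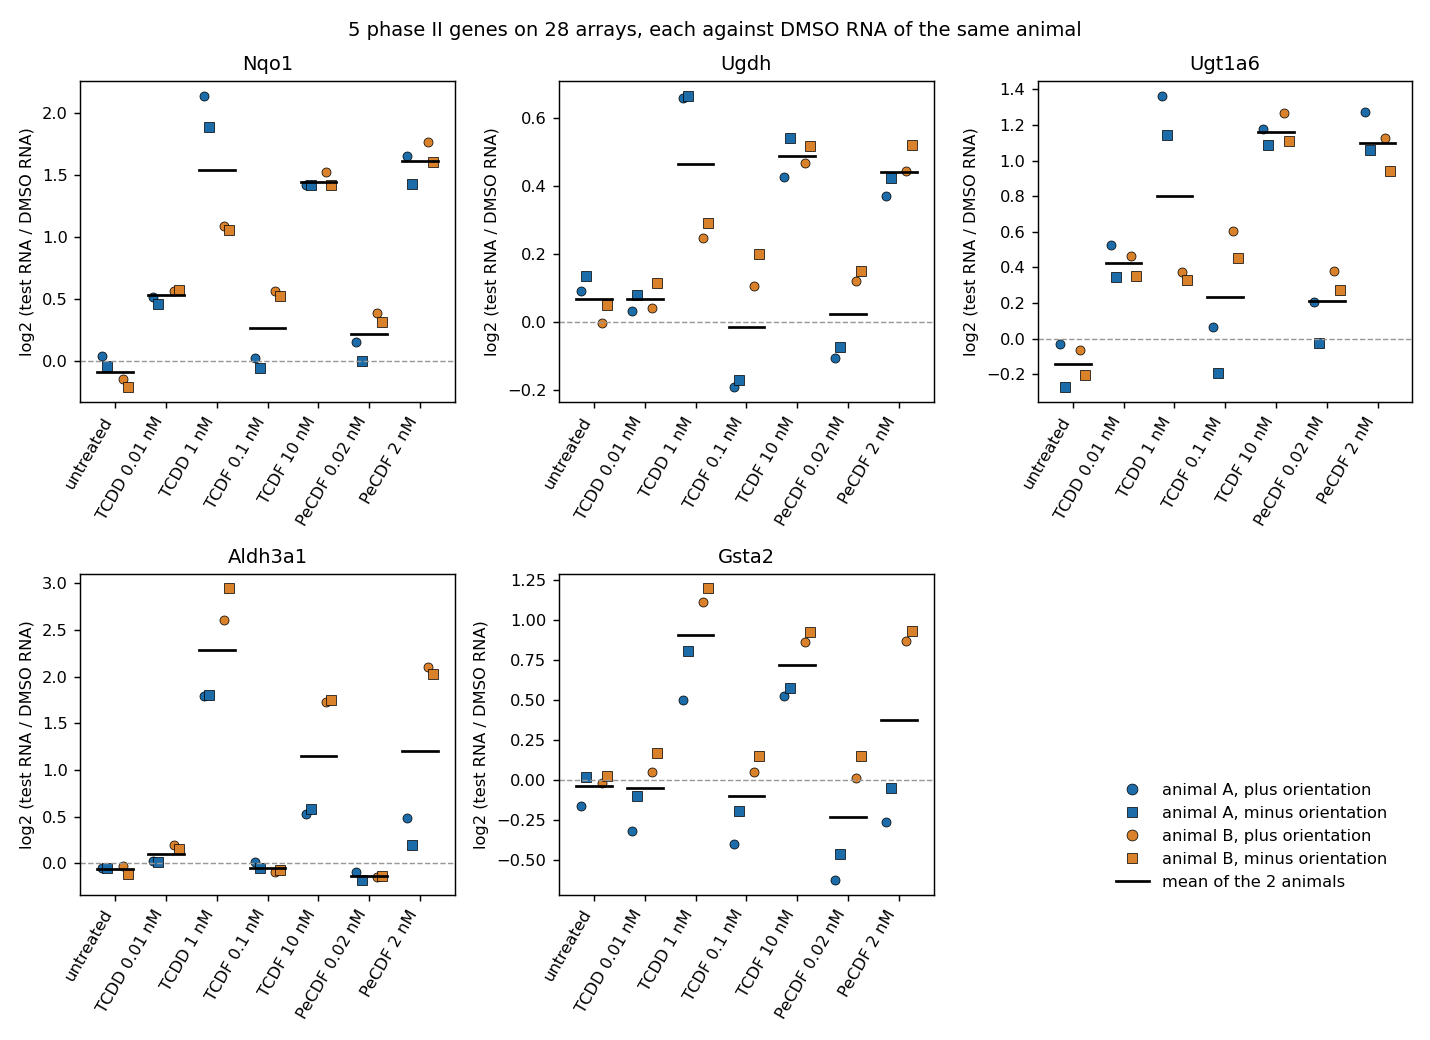
Log2 ratio of test RNA over DMSO RNA (y axis) of the 5 genes in the 7 groups (x axis) on each of the 28 arrays; colour stands for the animal, shape for the dye orientation and the bar for the mean of the 2 animals. With TCDD 1 nM all 4 arrays of every gene lie above 0, animal A is above animal B for Nqo1, Ugdh and Ugt1a6, and animal B is above animal A for Aldh3a1 and Gsta2.

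Nqo1, the quinone reductase (probe A_44_P476733), was called at all 3 upper doses. Its ratios with TCDD 1 nM were 2.14 and 1.89 on the arrays of animal A and 1.09 and 1.05 on those of animal B. With TCDF 10 nM they were 1.42 and 1.42 in animal A and 1.52 and 1.42 in animal B, and with PeCDF 2 nM 1.66 and 1.43 in animal A and 1.77 and 1.61 in animal B. The furan groups were thus even between the animals, and the TCDD group was not. The fitted means were 1.54 ± 0.18 with TCDD (SE, n = 2, adjusted p = 0.000527 in limma's fit), 1.44 ± 0.18 with TCDF (adjusted p = 0.00436) and 1.61 ± 0.18 with PeCDF (adjusted p = 0.0019). At the lower doses the animals had 0.49 and 0.57 with TCDD 0.01 nM, -0.02 and 0.54 with TCDF 0.1 nM, and 0.08 and 0.35 with PeCDF 0.02 nM, A before B. Untreated cells had -0.0023 and -0.18. The mean with TCDD 0.01 nM, 0.53, stood above 0 on 4 of 4 arrays but missed the threshold (95% interval 0.12 to 0.94, adjusted p = 0.309). The lowest of the 12 upper-dose arrays had 1.05, and the highest of the 16 arrays of lower doses and untreated cells 0.57, so that these arrays did not overlap. They are dye-swap pairs of 2 animals, and how many of all gene names had such a gap was not counted.

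Aldh3a1, the aldehyde dehydrogenase (probe A_43_P12705), gave the largest ratio of the 5 genes with TCDD 1 nM and the largest spread between animals. The arrays with TCDD 1 nM gave 1.79 and 1.80 in animal A and 2.61 and 2.95 in animal B. At 10 nM TCDF the arrays of animal A gave 0.53 and 0.58, and those of animal B 1.73 and 1.75. With PeCDF 2 nM animal A had 0.49 and 0.19, and animal B 2.11 and 2.03. In each upper-dose group the arrays of animal B lay wholly above those of animal A. The fitted means were 2.28 ± 0.36 with TCDD 1 nM (SE, n = 2, adjusted p = 0.00282), 1.15 with TCDF 10 nM (95% interval 0.34 to 1.96, adjusted p = 0.174) and 1.20 with PeCDF 2 nM (0.39 to 2.01, adjusted p = 0.103). With the animal as a block, the PeCDF value passed (adjusted p = 0.0487) and the TCDF value did not. At the lower doses and in untreated cells every array lay between -0.18 and 0.20.

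Ugdh, which makes the sugar donor of glucuronidation (probe A_44_P447623), had the smallest of the called ratios at all 3 upper doses. Its arrays had 0.66 and 0.66 in animal A and 0.24 and 0.29 in animal B with TCDD 1 nM. With TCDF 10 nM they had 0.43 and 0.54 in animal A and 0.47 and 0.52 in animal B, and with PeCDF 2 nM 0.37 and 0.42 in animal A and 0.44 and 0.52 in animal B. The fitted means were 0.46 ± 0.09 (SE, n = 2, adjusted p = 0.0107), 0.49 ± 0.09 (adjusted p = 0.0274) and 0.44 ± 0.09 (adjusted p = 0.0292), for TCDD, TCDF and PeCDF in this order. The PeCDF call was lost with the scanner files' own log ratio (adjusted p = 0.0534). The lowest of its 12 upper-dose arrays had 0.24, and the highest of the 16 arrays of lower doses and untreated cells 0.20. This gap is smaller than the median difference of 0.08 between the dye orientations of an animal. The arrays are dye-swap pairs of 2 animals, and how many of all gene names had such a gap was not counted.

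Ugt1a6, which adds the sugar to planar phenols (probe A_44_P432358), was called at all 3 upper doses. Its arrays with TCDD 1 nM gave 1.36 and 1.14 in animal A but 0.37 and 0.33 in animal B. With TCDF 10 nM the arrays gave 1.18 and 1.09 in animal A and 1.27 and 1.11 in animal B, and with PeCDF 2 nM 1.27 and 1.06 in animal A and 1.13 and 0.94 in animal B. The fitted means were 0.80 ± 0.18 with TCDD (SE, n = 2, adjusted p = 0.016), 1.16 ± 0.18 with TCDF (adjusted p = 0.00943) and 1.10 ± 0.18 with PeCDF (adjusted p = 0.00887). With TCDD 0.01 nM the animals had 0.44 and 0.41, a mean of 0.42 (95% interval 0.03 to 0.82, adjusted p = 0.424), above 0 on 4 of 4 arrays. In animal B the ratio with TCDD 1 nM, 0.35, was therefore no higher than that with TCDD 0.01 nM. The TCDD 1 nM call was lost in a fit of the untreated and TCDD groups alone (adjusted p = 0.0612).

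Gsta2, the glutathione transferase, was called with TCDD 1 nM only. Its brighter probe, A_43_P13967, had 0.50 and 0.81 in animal A and 1.11 and 1.20 in animal B with TCDD 1 nM. With TCDF 10 nM it had 0.52 and 0.57 in animal A and 0.86 and 0.92 in animal B, and with PeCDF 2 nM -0.26 and -0.05 in animal A and 0.87 and 0.93 in animal B. The PeCDF group was thus split by animal about 0, and no array of the other 2 upper-dose groups was below 0. The fitted means were 0.90 ± 0.23 with TCDD (SE, n = 2, adjusted p = 0.0317), 0.72 with TCDF (95% interval 0.21 to 1.23, adjusted p = 0.18) and 0.37 with PeCDF (-0.14 to 0.88, adjusted p = 0.483). The TCDD call was lost with no background correction (adjusted p = 0.0639) and with the plus orientation alone (adjusted p = 0.0777), and the TCDF value passed with the animal as a block (adjusted p = 0.0207). In animal A the ratios at the lower doses were -0.21 with TCDD, -0.29 with TCDF and -0.54 with PeCDF, against 0.11, 0.10 and 0.08 in animal B.

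The dimmer Gsta2 probe, A_44_P109608, was tested as well. It had 0.80 in animal A and 1.06 in animal B with TCDD 1 nM and rose (mean 0.93 ± 0.26, adjusted p = 0.0476), with every kept probe tested on its own, where 4.54% of probes were called higher. With TCDF 10 nM it had 0.66 and 1.00 (adjusted p = 0.167) and with PeCDF 2 nM 0.01 and 1.19 (adjusted p = 0.269), where 0.984% and 1.69% of probes were called higher, for TCDF and PeCDF in this order. Gsta2 belongs to a family of closely related alpha-class genes, and which of them the 2 probes also bind is not given in the sources used here, so its values are uncertain as to the gene.

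**Figure D2:**
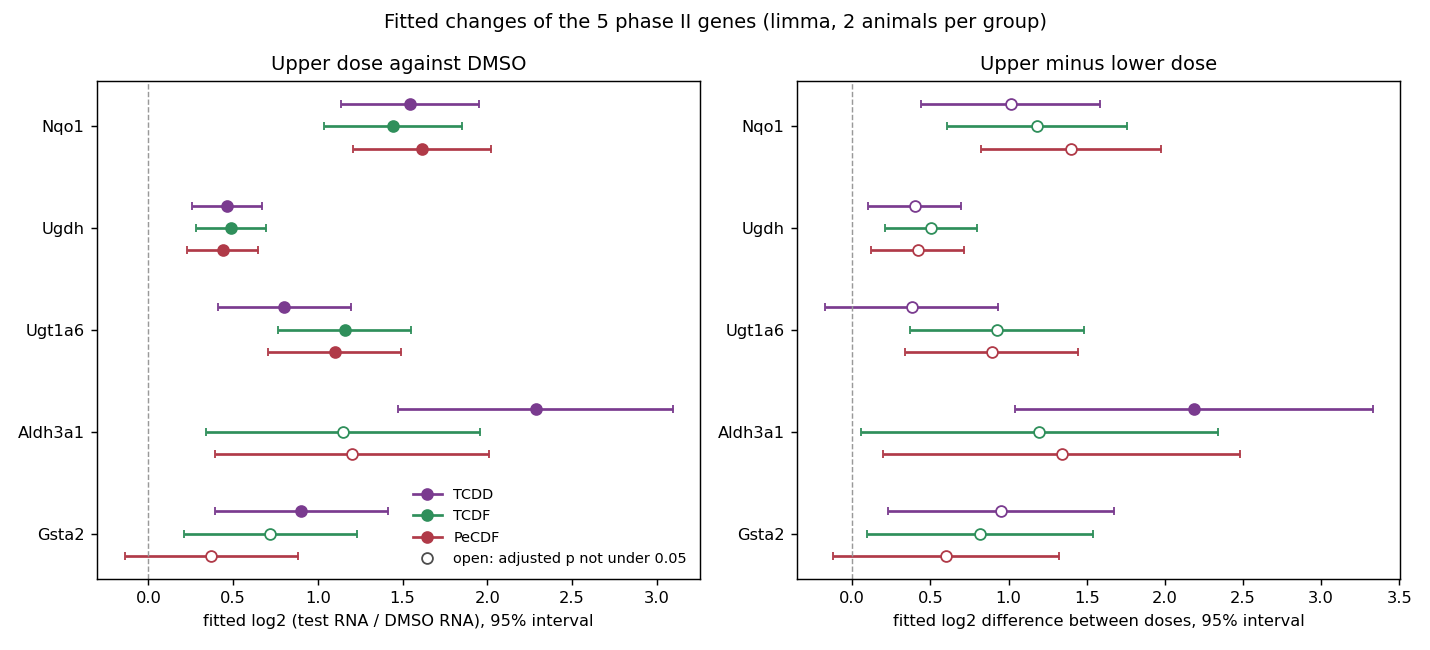
Fitted log2 values with 95% intervals (x axis) of the 5 genes (y axis), at the left for each upper dose against DMSO and at the right for the upper minus the lower dose of each compound; filled points passed an adjusted p under 0.05. Intervals are widest for Aldh3a1 and narrowest for Ugdh, and 1 of 15 dose differences, that of Aldh3a1 between the TCDD doses, is filled.

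Between the doses of a compound, which were 100-fold apart, 1 of 15 differences passed. Aldh3a1 was 2.19 ± 0.51 log2 units higher with TCDD 1 nM than with TCDD 0.01 nM (SE, adjusted p = 0.0466), a step in which 1.39% of all gene names were called higher. This call was lost with the scanner files' own log ratio (adjusted p = 0.0579) and without animal B at 1 nM (adjusted p = 0.246). Nqo1 had a difference of 1.01 between the TCDD doses (95% interval 0.44 to 1.59, adjusted p = 0.0627), which was 0.54 without animal A at 1 nM (adjusted p = 0.153) and 1.48 without animal B (adjusted p = 0.00672), and Gsta2 0.95 (0.23 to 1.68, adjusted p = 0.162, and 0.0197 with the animal as a block). Ugt1a6 had 0.38 between the TCDD doses (-0.18 to 0.93, adjusted p = 0.501), the only one of its 3 dose differences whose interval held 0. In the furan steps few gene names passed at all, 0.0172% called higher for TCDF and 0.0258% for PeCDF, and no member did. The differences of Nqo1 there were 1.18 for TCDF (adjusted p = 0.276) and 1.40 for PeCDF (adjusted p = 0.114). Those of Ugt1a6 were 0.93 (adjusted p = 0.53) and 0.89 (adjusted p = 0.433), for TCDF and PeCDF.

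Since the doses of the compounds differ, their values can only be set side by side. Ordered by mean ratio, the upper doses took the 3 highest of 7 places for every member. How many of all gene names had this order, or upper-dose arrays apart from the others, was not counted. Aldh3a1 and Gsta2 were highest with TCDD 1 nM, Ugt1a6 and Ugdh with TCDF 10 nM, and Nqo1 with PeCDF 2 nM. Between neighbours in this order the array ranges overlapped in 5 of 6 cases for Nqo1, Aldh3a1, Ugt1a6 and Ugdh and in 6 of 6 for Gsta2. The gap of Nqo1 and Ugdh lay between the upper doses and the other groups, and that of Aldh3a1 between TCDD 0.01 nM and TCDF 10 nM. That of Ugt1a6 lay between untreated cells and PeCDF 0.02 nM. Neighbours among the 3 upper doses thus overlapped in all 5 genes, and the lowest upper-dose array of Aldh3a1, that of animal A with PeCDF 2 nM, had 0.19, against 0.20 on the highest lower-dose array.

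With TCDD 1 nM the 2 animals split the 5 genes by pattern. Given TCDD 1 nM, animal A had the higher ratios of Nqo1 (2.01 in A, 1.07 in B), Ugt1a6 (1.25 and 0.35) and Ugdh (0.66 and 0.27). Animal B had the higher ratios of Aldh3a1 (2.78 in B, 1.79 in A) and Gsta2 (1.15 and 0.65). At 2 nM PeCDF the split of these 2 was wider. Aldh3a1 had 2.07 in B and 0.34 in A, and Gsta2 0.90 and -0.16. There Nqo1, Ugt1a6 and Ugdh differed by at most 0.14 between the animals. At both lower furan doses animal B had the higher ratios of Nqo1, Ugt1a6, Ugdh and Gsta2. With TCDF 0.1 nM A and B had -0.02 and 0.54 for Nqo1, -0.06 and 0.53 for Ugt1a6 and -0.18 and 0.15 for Ugdh. Across the 14 animal-level ratios, which share DMSO channels and days, Pearson's r was 0.95 between Nqo1 and Ugt1a6, 0.94 between Nqo1 and Ugdh, 0.90 between Ugt1a6 and Ugdh and 0.91 between Aldh3a1 and Gsta2. Across these 2 sets it was between 0.53 and 0.74. The sets were formed from values that also enter these r, so the r restate the split and lend it no support. The r between pairs of all gene names were not computed for comparison.

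In the TCDD 1 nM group each animal was left out in turn. The spread was then taken from the other groups, and the lone animal was assumed to vary like them. Each estimate is thus the value of the animal that stayed, so the calls restate the split above and lend it no support. Without animal A 3 of the 5 genes were called, Nqo1 (1.07 ± 0.16, adjusted p = 0.00288), Aldh3a1 (2.78 ± 0.49, adjusted p = 0.00642) and Gsta2 (1.15 ± 0.32, adjusted p = 0.0484), and Ugt1a6 (adjusted p = 0.22) and Ugdh (adjusted p = 0.158) were not. Without animal B 3 were called, Nqo1 (2.01 ± 0.16, adjusted p = 0.000284), Ugt1a6 (1.25 ± 0.16, adjusted p = 0.00244) and Ugdh (0.66 ± 0.10, adjusted p = 0.00817), and Aldh3a1 (adjusted p = 0.0784) and Gsta2 (adjusted p = 0.39) were not. Nqo1 was thus the member called with either animal. In the PeCDF 2 nM group Nqo1 alone kept its call without animal A (adjusted p = 0.0431) and without animal B (adjusted p = 0.0269). In the TCDF 10 nM group no member passed with either animal left out, with adjusted p of Nqo1 at 0.108 without A and 0.0598 without B. Over all gene names the calls also fell in number there, to 64 without A and 260 without B, against 823 with both, and for PeCDF 2 nM to 136 and 658, against 1530. For TCDD 1 nM they came to 3887 without A and 1595 without B, against 3677 with both. Whether the animals differ in these responses cannot be tested with 2 of them.

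**Figure D3:**
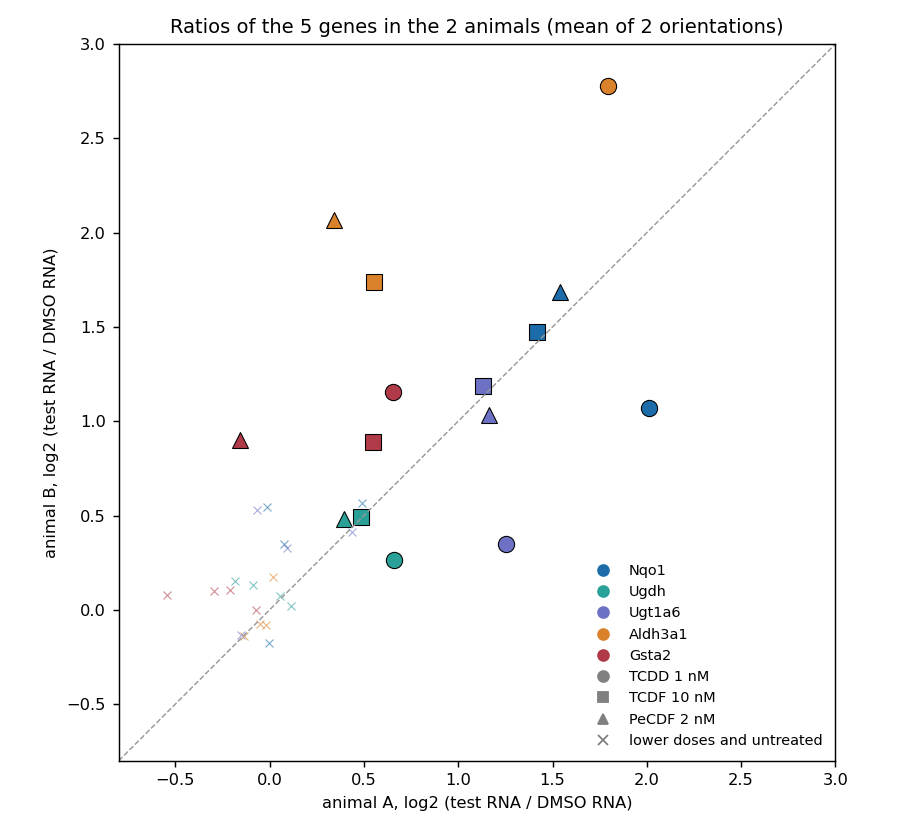
Log2 ratio of test RNA over DMSO RNA in animal A (x axis) and animal B (y axis), each the mean of 2 dye orientations, with colour for the gene, large symbols for the upper doses and crosses for lower doses and untreated cells; the dashed line marks equal values. Aldh3a1 and Gsta2 lie above the line at every upper dose, and Nqo1, Ugt1a6 and Ugdh lie below it with TCDD 1 nM and near it with TCDF 10 nM and PeCDF 2 nM.

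The DMSO channel was not constant for the members that rose most. In animal B the level of Aldh3a1 in the DMSO channel (log2 intensity, mean of 2 orientations) was 10.47 beside TCDD 1 nM and 9.05 beside TCDD 0.01 nM. It was 9.87 beside PeCDF 2 nM and 9.14 beside PeCDF 0.02 nM, and 9.59 beside TCDF 10 nM and 9.23 beside TCDF 0.1 nM. For Nqo1 the DMSO level was higher beside the upper dose in all 6 animal and compound pairs, by 0.19 to 0.57. For Ugt1a6 and Aldh3a1 it was higher in 5 of 6, for Gsta2 in 4 and for Ugdh in 3. Over all gene names tested the median change of the DMSO level between the TCDD doses was 0.01, whereas over the 25 whose ratio differed by more than 1 log2 unit upwards it was 0.22. Between the furan doses it was 0.27 over 5 such gene names for TCDF and 0.05 over 13 for PeCDF, with medians over all of -0.005 and 8e-04.

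Taken from the test channel alone, as values with no test, the difference between the TCDD doses was 3.11 for Aldh3a1 (2.21 in animal A and 4.01 in animal B), against 2.19 from the ratios. For Nqo1 it was 2.09 in animal A and 0.69 in animal B, against 1.52 and 0.50 from the ratios. For Ugt1a6 it was 1.25 in animal A and -0.01 in animal B, against 0.82 and -0.06. Gsta2 had 1.17 in animal A and 1.02 in animal B, against 0.86 and 1.05 from the ratios, so that the order of the animals turned. For Ugdh it was 0.36 and 0.33, against 0.61 and 0.19. In the test channel the animals thus kept their order for all 5 genes but Gsta2, and those of Ugdh lay close together. The part of the DMSO channel in the ratios was not tested.

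**Figure D4:**
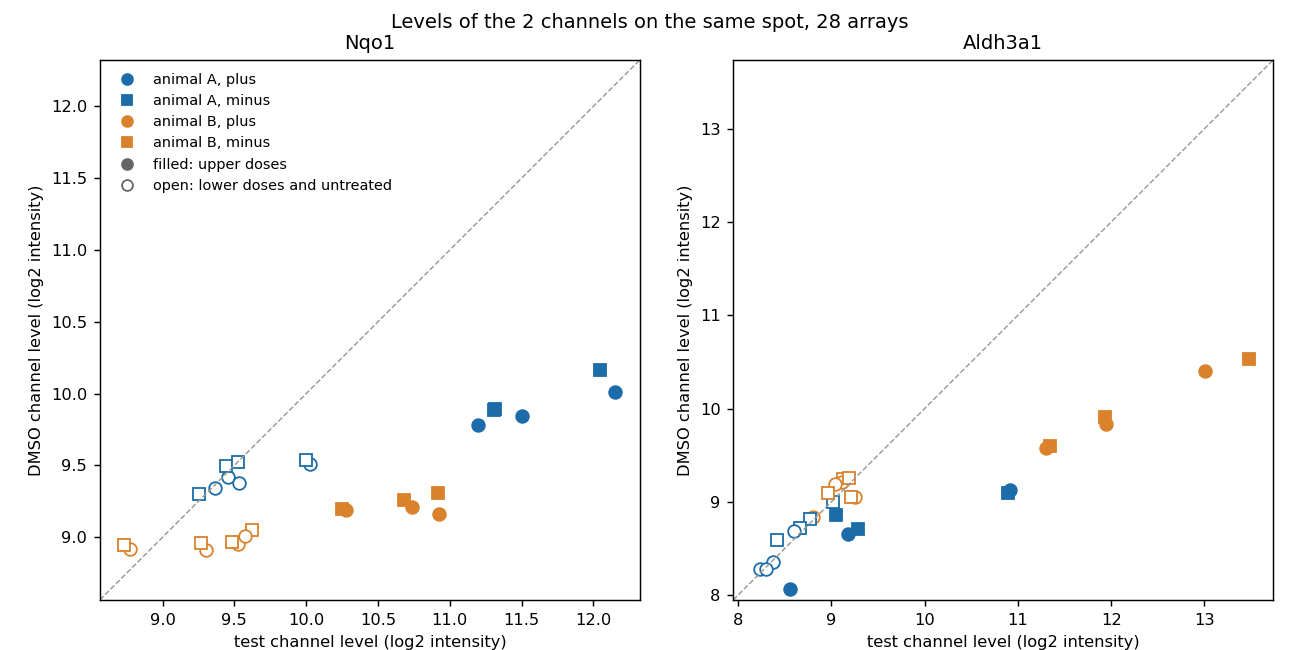
Level in the test channel (x axis) and in the DMSO channel (y axis) of the same spot, both as normalized log2 intensity, for Nqo1 and Aldh3a1 on the 28 arrays; colour stands for the animal, shape for the dye orientation, filled symbols for the upper doses and the dashed line for equal levels. On the right-hand side of each panel the DMSO level is higher where the test level is higher, and reaches 10.5 for Aldh3a1 in animal B beside TCDD 1 nM.

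Ugt1a6 shares its last exons with the other Ugt1a genes. The Ugt1a6 probe lists accessions of this gene alone. A pair of probes that the files name Ugt1a8 also list Ugt1a6 and Ugt1a1. The first of them, A_44_P402641, had 0.80 in animal A and 0.38 in animal B with TCDD 1 nM and rose (0.59 ± 0.09, adjusted p = 0.00205), and the second, A_44_P432355, had 0.66 in animal A and -0.58 in animal B (mean 0.04, 95% interval -0.44 to 0.52, adjusted p = 0.952). With PeCDF 2 nM the first rose (0.36 ± 0.09, adjusted p = 0.0494) and the second had 0.34 (adjusted p = 0.503). With TCDF 10 nM they had 0.18 and 0.27, and neither passed (adjusted p = 0.443 and 0.755). The probe of Ugt1a1, which conjugates bilirubin, had -1.13 in animal A and -1.99 in animal B with TCDD 1 nM and fell (-1.56 ± 0.20, adjusted p = 0.000951). It had -0.53 with TCDF 10 nM (adjusted p = 0.287) and -0.47 with PeCDF 2 nM (adjusted p = 0.271). Whether these probes also bind other Ugt1a RNAs was not tested, since their annotation alone was used. The probe listed for Ugt1a6 was thus higher and that listed for Ugt1a1 lower with TCDD 1 nM, and animal A had the higher value on all 4 probes.

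**Figure D5:**
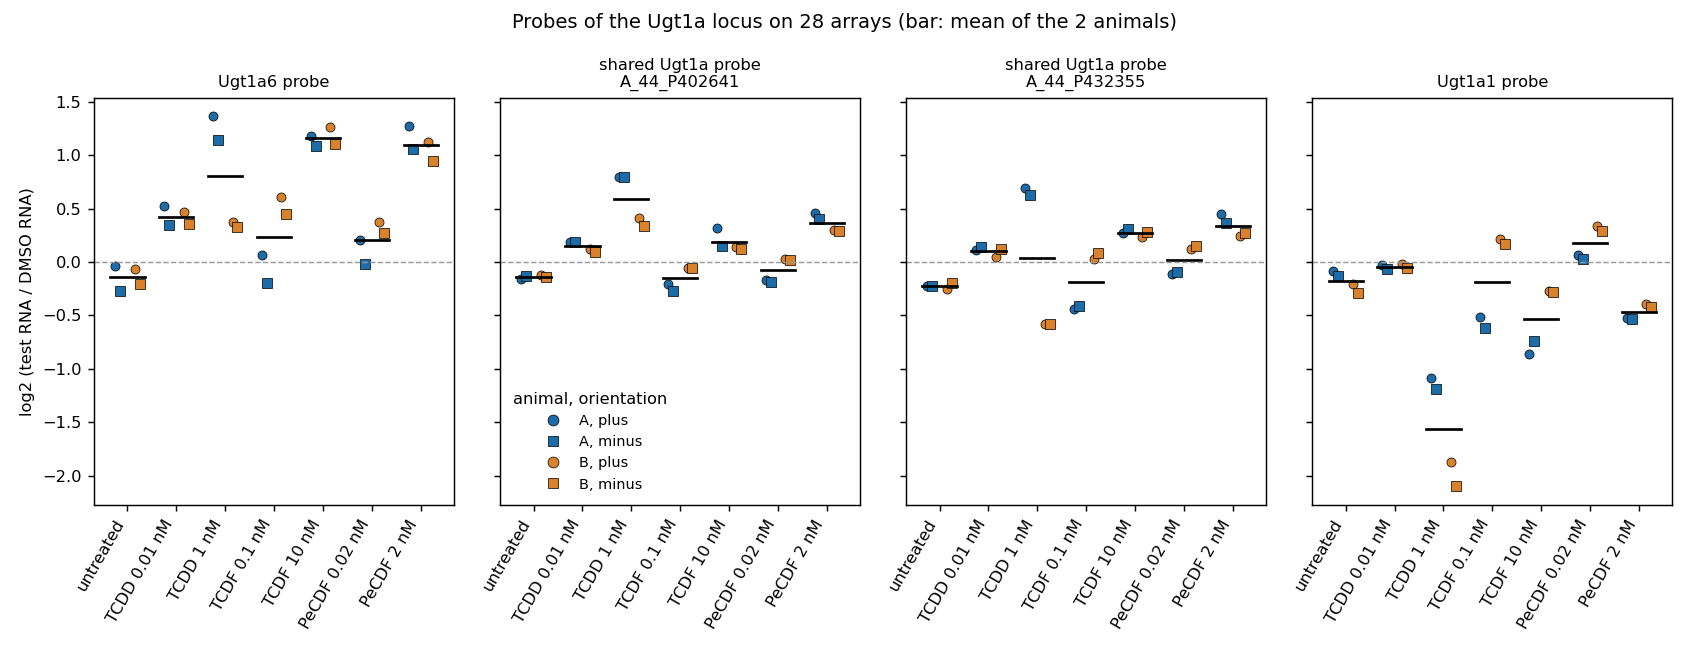
Log2 ratio of test RNA over DMSO RNA (y axis) on 4 probes of the Ugt1a locus in the 7 groups (x axis), 1 point per array, with colour for the animal, shape for the dye orientation and a bar for the mean of the 2 animals. With TCDD 1 nM the mean is 0.80 on the Ugt1a6 probe and -1.56 on the Ugt1a1 probe, and on the second shared probe animal A lies at 0.66 and animal B at -0.58.

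Most other genes of the same enzyme families fell or did not pass. Of 11 other glucuronosyltransferases measured, 7 fell with TCDD 1 nM and 1, the shared probe named Ugt1a8, rose (median -0.69, against -0.0013 over all gene names). Ugt2a3 and Ugt2b15, transferases of steroids and bile acids, had -1.43 ± 0.19 (adjusted p = 0.000953) and -1.14 ± 0.18 (adjusted p = 0.00276). With TCDF 10 nM and with PeCDF 2 nM 1 of the 11 fell, Ugt2a1 (-0.28 and -0.26), a gene chosen after its values were seen, and the shared probe rose with PeCDF. Of 17 other glutathione transferases none rose and 4 fell with TCDD 1 nM, among them Mgst3 (-0.65 ± 0.12), Mgst1 (-0.53 ± 0.10) and Gstm7 (-0.36 ± 0.05), membrane-bound and mu-class enzymes. The fourth, Gstk1 (-0.30), also fell with TCDF 10 nM, and Gstm7 fell with TCDF 10 nM (-0.24) and PeCDF 2 nM (-0.24). The alpha-class Gsta1 and Gsta3 had 0.09 (adjusted p = 0.463) and -0.12 (adjusted p = 0.448) with TCDD 1 nM; these and Gstk1 were chosen after their values were seen.

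Of 15 other aldehyde dehydrogenases, 3 fell with TCDD 1 nM and 1 rose. Aldh9a1, an enzyme of carnitine synthesis, had -1.08 ± 0.21 (adjusted p = 0.00827), Aldh6a1, of valine breakdown, -0.66 ± 0.14 (adjusted p = 0.0119), and Aldh1a1, which makes retinoic acid, -0.59 ± 0.15 (adjusted p = 0.0345). Aldh18a1, an enzyme of proline synthesis chosen after its values were seen, rose by 0.38 ± 0.06 (adjusted p = 0.00287). No gene of this family passed with TCDF 10 nM or PeCDF 2 nM.

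Of 12 other genes that make, carry or use UDP-glucuronic acid and its products, 4 fell and 1 rose with TCDD 1 nM (median -0.24). Pgm1, which feeds glucose phosphate into the pathway before Ugdh, had -0.90 ± 0.25 (adjusted p = 0.0451), Gulo, the last enzyme of vitamin C synthesis, -0.37 ± 0.07 (adjusted p = 0.00689), and Gusb, which cleaves glucuronides, -0.28 ± 0.08 (adjusted p = 0.0465). The fourth was Dcxr (-0.24, adjusted p = 0.018), a xylulose reductase. The gene that rose was Slc35d1, which carries UDP-glucuronic acid into the endoplasmic reticulum, with 0.26 ± 0.04 (adjusted p = 0.00356). It rose with PeCDF 2 nM as well (0.29 ± 0.04, adjusted p = 0.00712), and had 0.15 with TCDF 10 nM (adjusted p = 0.127). Dcxr and Slc35d1 were chosen after their values were seen.

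Of 7 other genes of the AHR battery 6 rose with TCDD 1 nM. Cyp1b1, a cytochrome that oxidizes oestrogens, had no saturated array (3.93 ± 0.15, adjusted p = 8.97e-07). Tiparp, which restrains the receptor, had 1.84 ± 0.25 (adjusted p = 0.0011), and Cyp1a2 had 1.82 ± 0.12 with 3 of 4 test channels saturated, so that its size is not set against the others. With PeCDF 2 nM 5 rose, Cyp1a1, Cyp1a2, Cyp1b1, Tiparp and Nfe2l2 (the gene of NRF2), and with TCDF 10 nM the same without Tiparp. At 0.01 nM TCDD 2 of the 7 passed, Cyp1a1, whose test channel was saturated on 4 of 4 arrays, and Cyp1a2 (0.92 ± 0.12, adjusted p = 0.00776). With TCDF 0.1 nM Cyp1a1 passed, saturated on 3 of 4. Cyp1a1 and Nfe2l2 were chosen after their values were seen. Of 7 genes of the receptor complex, such as Ahr (0.04 with TCDD 1 nM, adjusted p = 0.757) and Arnt (-0.11, adjusted p = 0.101), none passed in any group.

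NRF2 targets outside the 5 genes moved in part. Of 24 measured, 6 rose and 1 fell with TCDD 1 nM (median 0.09), with TCDF 10 nM 3 rose, and with PeCDF 2 nM 4 rose and 2 fell. Txnrd1, a thioredoxin reductase, had 0.77 ± 0.06 (adjusted p = 3.24e-05) with TCDD 1 nM, 0.52 with TCDF 10 nM (adjusted p = 0.00226) and 0.52 with PeCDF 2 nM (adjusted p = 0.00179). Akr7a3, an aflatoxin aldehyde reductase, had 0.60 ± 0.07 (adjusted p = 0.00067), 0.51 (adjusted p = 0.00834) and 0.34 (adjusted p = 0.0315) in the same order. Gclm, a subunit of the enzyme that starts glutathione synthesis, rose with TCDD 1 nM (0.55 ± 0.06, adjusted p = 0.000233) and had 0.24 with TCDF 10 nM (adjusted p = 0.0615) and 0.13 with PeCDF 2 nM (adjusted p = 0.259).

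The genes whose 14 animal-level ratios were most like those of each member, by Pearson's r among tested gene symbols, are given as a description. For Nqo1 they were Slc41a2 (0.97), a magnesium transporter, Cyp2a1 (0.97), a steroid-hydroxylating cytochrome, and Slc17a1 (0.94), a phosphate and urate transporter. Ugdh had Cyp2a1 (0.97), Slc17a1 (0.96) and Ppil1 (0.94). Ugt1a6 had Kpna3 (0.95), Atg101 (0.94) and Srxn1 (0.93), an NRF2 target that reduces peroxiredoxins. For Aldh3a1 they were Ceacam4 (0.97), Nlrc4 (0.96) and Pigs (0.94), and for Gsta2 Tusc3 (0.97), Cyb561d1 (0.96) and Ltb (0.94). Nqo1 and Ugdh thus shared Cyp2a1 and Slc17a1. No other pair of members shared a gene, and this holds for Aldh3a1 with Gsta2 and for Ugt1a6 with Nqo1 or Ugdh. The lists are short, so a lack of overlap between them does not set members apart. Cyp2a1 rose with TCDD 1 nM (1.21, adjusted p = 0.00419), TCDF 10 nM (1.20, adjusted p = 0.0163) and PeCDF 2 nM (0.95, adjusted p = 0.0307), and Ceacam4 with the same groups (1.45, 1.05 and 0.86, adjusted p = 0.000145, 0.00515 and 0.00897).

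The cultures carried hepatocyte markers at high signal: Tf, Fgb and Alb, plasma proteins of hepatocytes, had median net DMSO signals near the scanner's ceiling, and Hnf4a had the lowest of the 10. Markers of other liver cells gave signal too, with all 10 Kupffer cell, 9 stellate cell, 5 of 7 endothelial and 7 of 8 bile duct markers above background on all 28 DMSO channels. Of all probes, 76.02% to 100% were above background on a single DMSO channel. Some of these markers were dim, such as Krt19 and Lyve1 with median net DMSO signals of 30.29 and 31.67. The counts therefore do not show that those cells were present. Where the 5 genes rose with TCDD 1 nM, 3 of 10 hepatocyte markers fell (Arg1, Cps1 and Tdo2, -0.85, -0.84 and -0.48), as did 5 of 10 Kupffer cell markers (Lyz2, C1qc and Vsig4 among them, -0.60, -0.50 and -0.48), 2 of 9 stellate cell markers (Lox and Vim, -0.91 and -0.75) and 2 of 8 bile duct markers (Anxa13 and Prom1, -1.35 and -0.49). No endothelial marker passed. At both upper furan doses 1 stellate cell and 1 bile duct marker fell, 1 stellate cell marker rose with PeCDF 2 nM, and no marker of the other 3 lists passed. The summed level with TCDD 1 nM, as test over DMSO channel, was 0.861 to 0.868 for hepatocyte, 0.852 to 0.875 for Kupffer cell, 0.808 to 0.838 for stellate cell, 0.955 to 1.07 for endothelial and 0.709 to 0.798 for bile duct markers. The hepatocyte sum is made up mostly of probes near the scanner's ceiling, which compresses its ratio towards 1, so that it measures a hepatocyte shift poorly. With TCDF 10 nM and PeCDF 2 nM these sums lay between 0.857 and 1.03. In such bulk samples fewer cells of a type and less RNA per cell cannot be told apart, and the part of these shifts in the members' values was not tested.

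The untreated and TCDD arrays were read by the scanner software on other days than the furan arrays, and dye orientation coincides with the day within each set. A difference between TCDD and the furans therefore cannot be told apart from the days, while TCDF and PeCDF were read on the same days. Each ratio is against a DMSO channel of its own array. Within 1 day, thus with 1 orientation alone, the mean of Nqo1 with TCDD 1 nM was 1.61 with the plus and 1.47 with the minus orientation, and that of Aldh3a1 2.20 and 2.37.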

How the data were processed

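RNA of cultured rat hepatocytes was measured on 2-colour Agilent arrays. The authors deposited scanner files with mean spot and median local background intensity (Alexa555 green, Alexa647 red) and a log10 ratio of red over green after their background subtraction and dye normalization, per the file headers. The deposited series table holds this log10 ratio turned to test over DMSO RNA (largest difference 4.995e-06). Scans were read with Agilent Feature Extraction, version 9.1 per the submitters' processing notes and another version per the file headers.

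From the intensities, log2 ratios were computed in R 4.3.3 with limma 3.58.1: normexp (offset 50), loess within arrays (2256 control spots at weight 0), outlier spots left out (0.0921%), spots of a probe averaged, ratios turned to test over DMSO, and dye-swap pairs averaged to 14 values. Probes not well above background on all 4 test channels of a group or at least 14 DMSO channels were dropped (37820 of 41012 kept), and the brightest probe stood for a gene name. limma fitted 7 group means together (3.2 prior and 7 residual degrees of freedom) over 34841 gene names. Calls are at a Benjamini-Hochberg adjusted p under 0.05. The fit was tested on simulated data. Channel levels are Aquantile-normalized log2 intensities. Figures were drawn with matplotlib.

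Samples whose titles carry the same letter, A or B, were taken as coming from the same animal. The deviations of animal A from the group means correlated between groups at -0.39 to 0.56 (median 0.13, 21 pairs of groups). Named genes were the 5 members, up to 3 called genes per other list with the largest ratio with TCDD 1 nM and 1 sign on all 4 arrays, and the 3 symbols most like each member. The members and lists were chosen with earlier results of these data known. Symbols came from RefSeq tables (15190 tested gene names). The number of animals, 2 per group, limits the precision. Compounds were not tested against each other, since their doses differ. Dishes of an animal were pooled, so p-values rest on the spread between the 2 animals of a group, pooled over the 7 groups.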

Additional observations from a re-analysis of the deposited data

Results flagged for a closer look

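Of 42 sets of 4 arrays (6 member probes in 7 groups) 1 held a value that stood far from the others by Dixon's ratio. Chance flags about 1 in 20 sets of independent values, a rate that need not hold here, since each set is a dye-swap pair from each of 2 animals. It was Nqo1 with TCDF 10 nM, where animal B in the plus orientation had 1.5242 and the other 3 arrays 1.4161, 1.4175 and 1.4208 (gap over range 0.956). The gap is small beside the ratio itself, since these 3 arrays nearly coincide.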

How the results depend on the processing

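With arrays fitted singly and the day as a block (consensus correlation 0.406 within an animal), the calls among the 5 genes were 1 with TCDD 0.01 nM (Nqo1), 5 with TCDF 10 nM, 4 with PeCDF 2 nM (Aldh3a1 gained), and 4, 3 and 3 between the doses of TCDD, TCDF and PeCDF. Calls over all gene names grew too, to 659, against 157 without this block, 2682 (823), 4369 (1530), 3478 (1303), 400 (31) and 520 (29), in the same order, and with TCDD 1 nM, where 5 members were called in both fits, to 6321 (3677). Between the TCDD doses 0 were called with the scanner's log ratio, with the series table and with no background correction, and 2 with the animal as a replicate block. Apart from the calls of Aldh3a1 and Gsta2 given with their results, the block changed no call of a member. Leaving 1 animal out of an upper-dose group, an alternative chosen after seeing the data (as was the test channel alone), left 3 calls with TCDD 1 nM without either animal, 0 with TCDF 10 nM and 1 with PeCDF 2 nM. The sign of Gsta2 with PeCDF 2 nM then ran from -0.1565 to 0.8996 and that of Ugt1a6 between the TCDD doses from -0.07334 to 0.8311. Leaving an animal out of every group left 1 value per group and no test. Signs turned with the minus orientation alone for Gsta2 in untreated cells (0.0211) and with TCDD 0.01 nM (0.03451) and for Ugdh with TCDF 0.1 nM (0.01394), all near 0. The causes were not tested. Filters on dim probes, marked spots and the choice of probe changed no count. With 2 animals per group a value that misses the threshold does not show that a gene did not change.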
